A study of Ovis aries with 2 samples.

Results

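The 8 genes described here are VEGFA, VEGFC, ANGPT2, KDR, FLT1, TIE1, TEK and CD34, which were chosen by name as ligands and receptors of the VEGF and angiopoietin pathways together with the vessel sialomucin CD34. All 8 were found among the 18161 genes of the deposited table, and their levels were followed across all 14037 cells of both libraries. The data are single-cell RNA-seq on the 10× Genomics platform of body-side skin from Hu sheep lambs at an age of 3 day. Skins of 3 straight wool lambs were pooled into 1 library and skins of 3 curly wool lambs, which the labels also call wavy, into the other. In both, cells freed from microdissected hair follicles had been mixed with cells of dissociated whole skin, and nothing in the labels tells the lambs of a pool apart. Since each wool type gave 1 library, wool types were compared by value alone, with no p-value, and every interval below covers counting error only.

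VEGF ligands are secreted proteins that bind receptor tyrosine kinases on the cells lining blood and lymph vessels, and VEGFA from hair follicle keratinocytes is known to drive the growth of the vessels around a growing follicle. Angiopoietins act on the same cells through the receptor TEK, also called TIE2, where ANGPT1 from the cells around vessels keeps vessels quiet and ANGPT2 mostly opposes it, while TIE1 is a related receptor that modulates TEK. CD34 is a sialomucin on the surface of capillary endothelium, and it is also carried by dermal fibroblasts and, in mice, by stem cells of the hair follicle bulge.

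Levels are given as CPM, the UMIs of a gene scaled to 1000000 UMIs of a class of cells in a library, where a UMI marks 1 captured RNA molecule. The straight library held 6452 cells with a median of 7373.5 UMIs and the curly library 7585 cells with a median of 7495 UMIs. Cells were clustered and the clusters named without the 8 genes, so that none of their levels had a part in the classes. Of 24 clusters, 15 could be named from marker genes, and the 9 unnamed ones held 37.3% of the cells. The libraries had 70 cell barcodes in common, or 0.997% of cells, and leaving these cells out moved no value beyond its counting interval.

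The endothelial-like cluster, led by CCL14, PLVAP and PECAM1, held 192 straight and 167 curly cells, with median depths of 5306 and 3820 UMIs. At least 3 of 12 endothelial markers had a UMI in 180 of the straight and 149 of the curly cells. The junction gene PECAM1 was found in 88.5% and 86.8% of them, the immune gene PTPRC in 1 straight cell and in 0 of 167 curly cells, which allows a share of up to 1.80%. Other genes of the immune list had more: SRGN was found in 33.9% and 25.1% of the cells, LAPTM5 in 25.5% and 15.6%, and CD74 in 20.3% and 22.2%, the last at 609 and 730 CPM against 47.7 and 31.6 CPM in all other cells. Of the lymphatic markers, CCL21 had UMIs in 4 straight and 10 curly cells (37.5 and 1103 CPM) and PROX1 in 1 and 5 cells. Keratin RNA of other cells was present as well: KRT71 of the inner root sheath (IRS) had a UMI in 37.0% of straight and 63.5% of curly endothelial-like cells, and the part of such RNA in the levels below was not tested. By doublet score, 35 of the 192 straight and 31 of the 167 curly cells were among the highest-scoring 6% of their library. They were kept in the values below, except where removal of doublets is named.

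**Figure D1:**
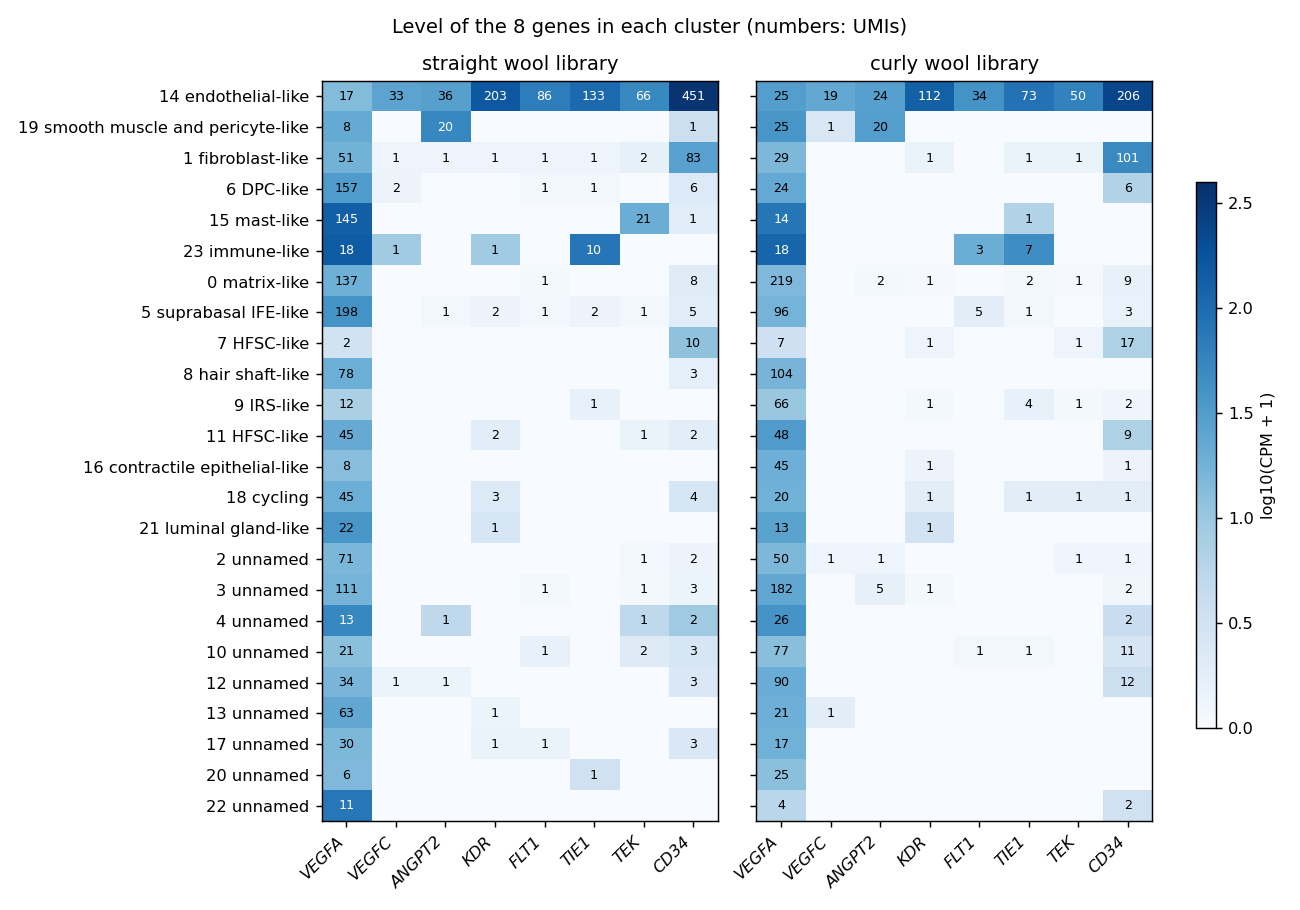
Level of the 8 genes in each of the 24 clusters, as log10(CPM + 1) by colour, for the straight and the curly library; the number in each field is the sum of UMIs and an empty field is a sum of 0. The receptors, VEGFC and CD34 fill the endothelial-like line (KDR with 203 and 112 UMIs) and are nearly empty in most other clusters, whereas the VEGFA column is filled in every cluster.

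The ligands did not share a source. VEGFA, the main ligand of KDR and FLT1, was found in all 24 clusters of both libraries, with 1303 UMIs in straight and 1245 in curly cells, or 22.5 and 16.0 CPM. VEGFC, which acts on lymphatic and blood vessels through FLT4 and KDR, and ANGPT2 were far rarer and came from vessel cells. VEGFA stood highest in the immune-like cells, at 143.8 CPM (18 UMIs, interval 85.2 to 227) in straight and 114.9 CPM (18 UMIs, 68.1 to 182) in curly cells. These classes are small, with 18 and 20 cells, and 8 of the 18 straight UMIs came from 1 cell, without which the straight level was 89.5 CPM. After removal of likely doublets, 10 straight immune-like cells were left, at 380 CPM.

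Mast-like cells, named from markers such as KIT and CPA3 and led by the protease genes TPSB2 and MCP1, came next in both libraries. VEGFA reached 132 CPM (145 UMIs, 111.5 to 155.5) in the 283 straight and 78.9 CPM (14 UMIs, 43.1 to 132) in the 73 curly mast-like cells. A VEGFA UMI was found in 32.2% of the straight mast-like cells (exact interval 26.8% to 37.9%) and in 12.3% of the curly ones (5.80% to 22.1%), but their median depths were 3336 and 1796 UMIs. After thinning to 2000 UMIs a cell, the shares were 21.3% of 249 and 15.6% of 32 cells, with intervals of 16.4% to 26.9% and 5.28% to 32.8%, which overlap. No marker of the mast cell list was among the 10 leading genes of this cluster, and the curly cells in it are shallow against the median of 7495 UMIs of their library, so that the name is less certain there.

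The lowest VEGFA level of all 24 clusters was that of cluster 7, a stem-like (HFSC-like) cluster led by LGR5, the receptor that marks cycling follicle stem cells. It held 2 UMIs in 227 straight cells and 7 UMIs in 530 curly cells, or 2.11 CPM (0.256 to 7.62) and 2.41 CPM (0.967 to 4.96). The other HFSC-like cluster, cluster 11, held 20.5 CPM (45 UMIs, 14.9 to 27.4) and 31.4 CPM (48 UMIs, 23.1 to 41.6), so that the intervals of the stem-like clusters did not overlap in either library. Among the named clusters, IRS-like cells came next from below with 6.36 CPM (12 UMIs, 3.29 to 11.1) in straight and 8.91 CPM (66 UMIs, 6.89 to 11.3) in curly cells. Matrix-like cells, the dividing cells that form the wool fibre, held 17.9 and 14.03 CPM, and hair shaft-like cells 18.9 and 15.7 CPM. Cells of these 3 classes had a VEGFA UMI in 8.63% to 20.1% of cells, against 0.881% and 1.32% in cluster 7, which is shallower (medians of 2986 and 5531 UMIs). At 2000 UMIs a cell the shares were 4.82% and 3.74% in matrix-like cells, 0 of 139 straight cells in cluster 7, which allows a share of up to 2.16%, and 0.426% of its 469 curly cells.

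Dermal papilla-like (DPC-like) cells, the mesenchymal cells at the base of the follicle, held 32.0 CPM of VEGFA (157 UMIs, 27.2 to 37.5) in straight and 21.6 CPM (24 UMIs, 13.8 to 32.1) in curly cells. Fibroblast-like cells held 16.6 CPM (12.4 to 21.9) and 14.1 CPM (9.46 to 20.3). Intervals of neighbours in the order of VEGFA levels overlapped throughout both libraries, and only clusters farther apart in it were told apart. The plot of VEGFA by cluster shows immune-like and mast-like cells above the other named clusters and cluster 7 below them.

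**Figure D2:**
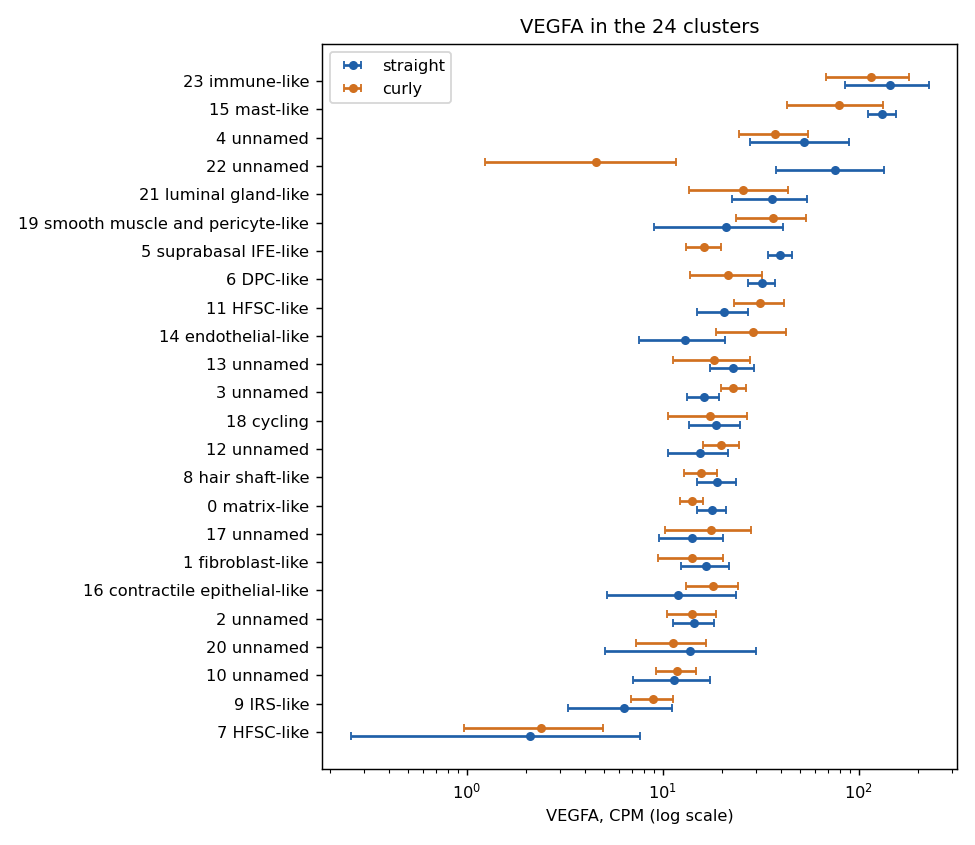
VEGFA in CPM (log scale) in each cluster of the straight and the curly library, with exact Poisson intervals, ordered by the mean of both. Immune-like and mast-like cells stand at the top with 144 and 132 CPM in straight, and cluster 7 at the bottom with 2.11 and 2.41 CPM.

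VEGFC was an endothelial gene in these cells. It reached 25.3 CPM (33 UMIs, 17.4 to 35.5) in straight and 22.0 CPM (19 UMIs, 13.2 to 34.3) in curly endothelial-like cells. These cells held 86.8% of all its UMIs in straight and 86.4% in curly, and all other cells together 5 and 3 UMIs. ANGPT2, in contrast, had 2 sources of like level. Smooth muscle and pericyte-like cells, the contractile cells around vessels that DES and RGS5 mark, held 52.4 CPM (20 UMIs in 16 of 84 cells, 32.0 to 81.0) in straight and 29.1 CPM (20 UMIs in 12 of 156 cells, 17.8 to 44.95) in curly cells. Endothelial-like cells held 27.6 CPM (36 UMIs, 19.3 to 38.2) and 27.8 CPM (24 UMIs, 17.8 to 41.3). The intervals of both classes overlapped in each library, and no other cluster held more than 5 UMIs of ANGPT2.

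In both libraries most UMIs of the 4 receptors came from endothelial-like cells. KDR, the main signalling receptor for VEGFA, reached 155.5 CPM (203 UMIs, 134.8 to 178) in straight and 129.5 CPM (112 UMIs, 107 to 156) in curly endothelial-like cells. All other cells held 12 and 8 KDR UMIs, or 0.212 and 0.104 CPM. FLT1, a high-affinity VEGFA receptor that also acts as a decoy, reached 65.9 CPM (86 UMIs, 52.7 to 81.3) and 39.3 CPM (34 UMIs, 27.2 to 54.9). The VEGF receptors thus had a UMI in few other cells, although 5 curly suprabasal cells had 1 of FLT1 each and 1 curly immune-like cell had 3. TIE1 reached 101.9 CPM (133 UMIs, 85.3 to 121) and 84.4 CPM (73 UMIs, 66.2 to 106). TEK reached 50.5 CPM (66 UMIs, 39.1 to 64.3) and 57.8 CPM (50 UMIs, 42.9 to 76.2). Of each receptor's UMIs, the endothelial-like cells held between 68.8% (TEK) and 94.4% (KDR) in straight and between 79.1% (FLT1) and 93.3% (KDR) in curly. None of the 4 had a UMI in smooth muscle and pericyte-like cells of either library, whose sums allow up to 7.86 CPM in straight and 4.37 CPM in curly, the level of 3 counts.

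Both TIE receptors had a second place. TEK had 21 UMIs in 19 of the 283 straight mast-like cells, or 19.1 CPM (11.9 to 29.3), which lay below the endothelial-like interval and above every other cluster with more than 1 UMI of it. It had no UMI in the 73 curly mast-like cells, where the exact interval reaches 20.8 CPM and overlaps the straight one. A difference of TEK between the libraries was thus not detectable at this depth. TIE1 had 10 UMIs in the straight and 7 in the curly immune-like cells, or 79.9 CPM (38.3 to 147) and 44.7 CPM (18.0 to 92.1). They came from 2 cells in each library, with 8 and 2 UMIs in straight and 6 and 1 in curly. Neither straight cell had a UMI of any of the 12 endothelial markers, and the curly cell with 6 TIE1 UMIs had a UMI of 1 of them. Both straight cells and that curly cell had no UMI of PECAM1, CDH5, PLVAP or CLDN5, and 207 to 414 UMIs of the immune genes CD74, SRGN, FCER1G and TYROBP. Without the richest cell, TIE1 stood at 17.3 and 7.07 CPM in these classes, so the level rests on single cells. The other curly cell, with 1 TIE1 UMI, had UMIs of 3 endothelial markers.

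**Figure D3:**
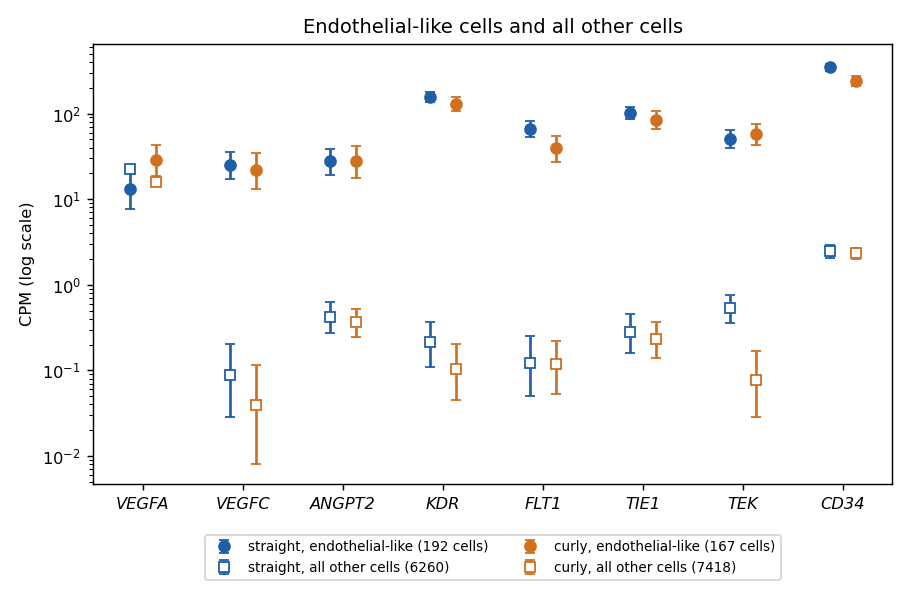
Level of each gene in CPM (log scale) in endothelial-like cells (filled) and in all other cells (open) of the straight and the curly library, with exact Poisson intervals. For 7 of the genes the endothelial-like level lies far above the rest (KDR 155.5 against 0.212 CPM in straight), and for VEGFA it does not.

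CD34 was the member with the most UMIs in the endothelial-like cells, at 345 CPM (451 UMIs, 314 to 379) in straight and 238 CPM (206 UMIs, 207 to 273) in curly cells. Unlike the receptors, it had a further, dermal source: fibroblast-like cells held 27.0 CPM (83 UMIs in 74 of 683 cells, 21.5 to 33.5) in straight and 49.2 CPM (101 UMIs in 84 of 531 cells, 40.1 to 59.7) in curly cells. This cluster is led by COL3A1 and LUM but also by the papilla markers APOD and CRABP1. At a finer resolution of 0.8 the fibroblast-like cells numbered 154 and 102, and CD34 stood at 51.7 CPM (34.6 to 74.3) in straight and 149.5 CPM (105 to 206) in curly cells. These hold 29 and 37 CD34 UMIs. A larger cluster there, with fibroblast as best class but led by SERPINF1, SOX18 and CRABP1, stayed unnamed. Its 491 straight and 360 curly cells held 54 and 59 CD34 UMIs, or 24.6 CPM (18.4 to 32.0) and 39.8 CPM (30.3 to 51.3). The endothelial-like cells held 76.4% of CD34 UMIs in straight and 53.5% in curly. Among follicle cells, CD34 was low. The LGR5-led cluster 7 held 10.6 CPM (10 UMIs, 5.06 to 19.4) and 5.84 CPM (17 UMIs, 3.40 to 9.35), cluster 11 held 0.910 CPM (2 UMIs) and 5.88 CPM (9 UMIs, 2.69 to 11.2), and hair shaft-like cells had 3 UMIs in 259 straight cells and 0 in 448 curly cells, which allows up to 0.452 CPM. In the straight library the order of CD34 was thus endothelial-like, fibroblast-like and cluster 7, with no overlap between these neighbours, and in the curly library the neighbours below fibroblast-like cells overlapped from cluster 11 down.

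Against all other cells of both libraries, 6 of the 7 members with at least 100 UMIs in the table stood 2-fold or more higher in endothelial-like cells and none stood 2-fold or more lower. Of all 13196 genes with as many UMIs, 14% were 2-fold or more higher there and 23.7% 2-fold or more lower. The exception among the members was VEGFA, and VEGFC was below 100 UMIs. The folds over all other cells were 734 in straight and 1243 in curly for KDR, 141 and 102 for CD34, and 65.1 and 76.1 for ANGPT2, where the rest includes the smooth muscle and pericyte-like cells. For VEGFA the endothelial-like level was 0.574 of the rest in straight and 1.82 times the rest in curly.

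Single endothelial-like cells held few UMIs of any member, and shares of cells with a UMI are given beside those at equal depth. CD34 had a UMI in 70.8% of straight endothelial-like cells (63.9% to 77.2%) and 56.3% of curly ones (48.4% to 63.9%). KDR had one in 50.5% (43.2% to 57.8%) and 34.1% (27.0% to 41.9%), TIE1 in 42.2% and 29.3%, FLT1 in 27.1% and 16.2%, and TEK in 25% and 22.2%. In IRS-like cells, which should lack these receptors and are deeper (medians of 14704 and 18215 UMIs), KDR had a UMI in 0 of 139 straight cells, which allows a share of up to 2.16%, and in 1 of 454 curly cells, both far below the endothelial-like shares. After thinning to 2000 UMIs a cell, which left 131 straight and 114 curly cells, CD34 was found in 45.8% (37.1% to 54.7%) and 34.2% (25.6% to 43.7%). KDR was found in 28.2% (20.7% to 36.8%) and 20.2% (13.2% to 28.7%), and TIE1 in 20.6% and 20.2%. At equal depth the intervals of both libraries overlapped for every member, as the plot of shares shows.

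**Figure D4:**
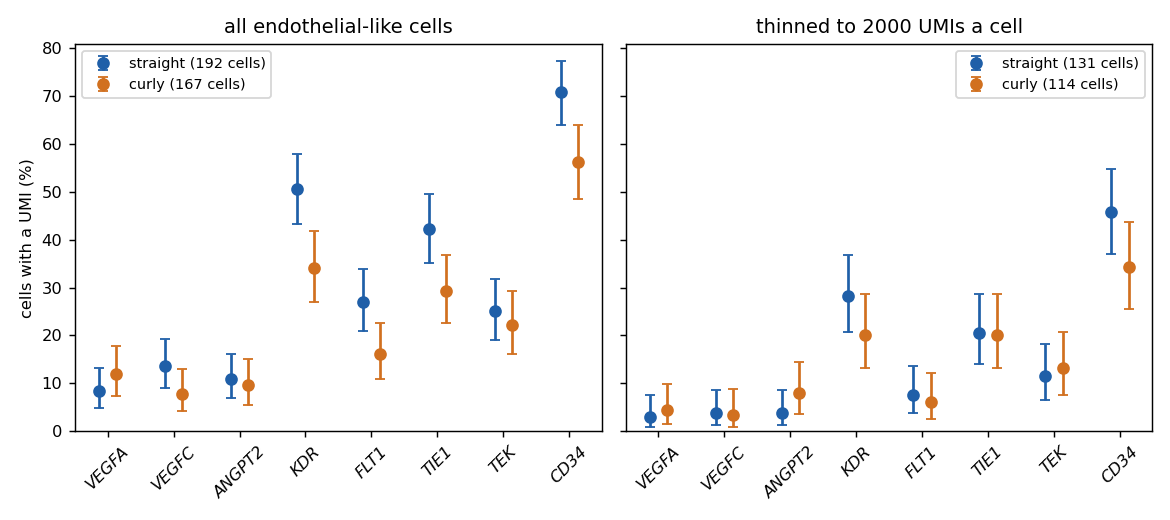
Percent of endothelial-like cells with a UMI of each gene, in all cells (left) and after thinning every cell to 2000 UMIs (right), with exact Clopper-Pearson intervals. CD34 falls from 70.8% and 56.3% to 45.8% and 34.2%, and the gap in KDR between the libraries narrows.

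Members were often found in the same cell. Of the 97 straight endothelial-like cells with a KDR UMI, 82.5% also had one of CD34 and 53.6% one of TIE1, against 58.9% and 30.5% of the 95 cells without KDR. In the curly library, 64.9% of the 57 cells with KDR had CD34 and 40.4% had TIE1, against 51.8% and 23.6% of the 110 cells without. The cells with KDR were deeper, with medians of 8291 against 1958 UMIs in straight and 5524 against 2766 in curly, and the part of depth in these shares was not tested. All 4 receptors and CD34 had a UMI in 11 straight and 3 curly cells, and none of the 5 in 26 straight cells with a median of 851 UMIs and in 38 curly cells with a median of 1023 UMIs.

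The endothelial-like cells were further compared by genes of vessel type that took no part in the choice of the members. The genes shown here and in the next paragraph were picked from a longer list after their values were seen. Intervals that lie apart are thus a description of picked cases. ACKR1, the atypical chemokine receptor of venules, had a UMI in 24 straight and 26 curly cells, with median depths of 5583 and 6008 UMIs against 5284.5 and 3375 in the cells without. TEK was higher in these cells, with 84.5 CPM (48.3 to 137) against 44.8 CPM (33.2 to 59.0) in straight and 116 CPM (71.8 to 177) against 42.4 CPM (28.4 to 60.9) in curly cells, where the intervals did not overlap. KDR went the other way, at 100.4 against 165 CPM in straight and 93.9 against 139 CPM in curly cells. ANGPT2 had 3 UMIs in the straight cells with ACKR1 and 0 in the curly ones, which allows up to 16.6 CPM, against 33 and 24 UMIs in those without, and over both libraries stood at 8.10 CPM (1.67 to 23.7) against 31.7 CPM (23.98 to 41.0). TEK was thus higher and KDR and ANGPT2 lower with ACKR1 in both libraries, and over both libraries the intervals of all 3 were apart. CD34 stood at 227 CPM (180.9 to 281) with ACKR1 and 318 CPM (293 to 346) without it over both libraries. The other vein genes of the list differed from this: with NR2F2, TEK stood at 59.6 against 47.6 CPM in straight and 75.5 against 52.5 CPM in curly cells, and with EPHB4 at 55.3 against 49.2 CPM and 31.7 against 63.7 CPM, all with intervals that overlapped.

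CCL21, the chemokine of lymphatic endothelium, marked 14 cells over both libraries. CD34 had 1 UMI in these cells, or 16.7 CPM (0.424 to 93.2), against 311 CPM (287 to 336) in the 345 cells without CCL21. KDR was present in both, at 167 CPM (80.2 to 308) and 144.5 CPM (129 to 162). FLT4, also on the lymphatic list, gave another value for CD34. It stood at 303 CPM (20 UMIs in 8 cells, 185 to 468) with FLT4 and at 303 CPM (280 to 327) without. DLL4, a Notch ligand of arterial and sprouting endothelium, had a UMI in 56 straight and 42 curly cells, which were deeper (medians of 9495 and 8766.5 UMIs) than the cells without (3379 and 2902 UMIs). With DLL4, VEGFC stood at 30.4 against 21.4 CPM in straight and at 43.0 CPM (15 UMIs, 24.1 to 71.0) against 7.75 CPM (4 UMIs, 2.11 to 19.8) in curly cells, and ANGPT2 at 35.8 against 21.4 CPM and 40.2 against 19.4 CPM. Both were higher in cells with DLL4 in both libraries, with intervals apart for VEGFC in curly cells alone. Other arterial genes gave other values: over both libraries ANGPT2 stood at 17.6 CPM (8.03 to 33.3) with HEY1 against 30.8 CPM (22.9 to 40.4) without, and at 28.6 against 27.1 CPM for GJA4. VEGFC stood at 31.2 against 21.7 CPM for HEY1 and at 27.3 against 21.96 CPM for GJA4, with intervals that overlapped.

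The partners of the pathway were read from lists of known genes. Of the other VEGF ligands, PGF, which binds FLT1, was led by contractile epithelial-like cells (45.4 CPM over both libraries) and then by smooth muscle and pericyte-like cells (27.1 CPM), and VEGFB by an unnamed cluster (33.97 CPM) and DPC-like cells (30.9 CPM). Neither stood 2-fold or more higher or lower in endothelial-like cells than in the rest. Of the receptors, the VEGFC receptor FLT4 had 9 of its 10 UMIs in endothelial-like cells, and the co-receptor NRP1 stood at 74.2 CPM there and at 73.8 CPM in mast-like cells, while NRP2 was led by IRS-like cells (53.5 CPM). ANGPT1, the activating ligand of TEK, was led by smooth muscle and pericyte-like cells (48.7 CPM), followed by mast-like cells (39.2 CPM), and like ANGPT4 it had 0 UMIs in endothelial-like cells, which allows up to 1.38 CPM. PTPRB, the phosphatase that restrains TEK, stood at 115.6 CPM in endothelial-like cells against 0.187 CPM in all others.

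Of the CD34 family, other sialomucins and the selectins that bind CD34, 3 genes had at least 100 UMIs. Of them, 2 stood 2-fold or more higher in endothelial-like cells, PODXL at 138 CPM and the sialomucin EMCN at 398 CPM. Against the 14% of all genes that were higher and the 23.7% that were lower, the lists gave the following counts. Of 12 endothelial transcription factors with at least 100 UMIs, 11 stood 2-fold or more higher in endothelial-like cells than in the rest, among them ERG (96.3 against 0.322 CPM) and ETS1 (405 against 14.3 CPM). So did 3 of 6 Notch genes, DLL4 among them, and 5 of 7 artery and vein genes. As such genes served to cluster the cells, these counts are a description. Of 9 antiangiogenic genes with as many UMIs, 2 stood 2-fold or more higher and 4 lower, among the latter SERPINF1 (5.99 against 57.0 CPM), which fibroblast-like cells led with 1031 CPM. The 16 genes of the hypoxia response, many of them known targets of HIF1A like VEGFA, gave 3 higher and 6 lower. With lists of 9 and 16 genes, a difference of these counts from the shares over all genes was not tested.

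The pattern over clusters was compared by Pearson correlation of log2(CPM + 5) over 48 points, the 24 clusters in each library, which share libraries and depth. The genes most like KDR were GPIHBP1 (r = 0.99), CDH5 (r = 0.97) and VWF (r = 0.97), and KDR itself was second most like VEGFC (r = 0.97), after GPIHBP1 (r = 0.97). ANGPT2 was most like GJA4 (r = 0.99), which smooth muscle and pericyte-like cells led (253 CPM) before endothelial-like cells (163 CPM). TEK was most like PTPRB (r = 0.93), TIE1 most like LOC101115115 (r = 0.94) and CLDN5 (r = 0.94), FLT1 most like LOC114108739 (r = 0.97) and CD34 most like HSPA12B (r = 0.94). VEGFA had no such close partner, and BIRC3 (r = 0.80), FAM214B (r = 0.76) and MCL1 (r = 0.74) came nearest. With Spearman correlation none of the 5 nearest genes was kept for KDR, VEGFC, FLT1, TEK and ANGPT2, 1 each for TIE1 and CD34 and 2 for VEGFA. The Spearman rho of KDR was 0.23 with GPIHBP1, 0.0095 with CDH5, 0.30 with VWF and 0.18 with VEGFC. That of VEGFA with BIRC3 was 0.68. KDR had no UMI in 15 of the 23 other clusters in each library, so its high r values rest mostly on the endothelial-like points. Over the 24 clusters, VEGFA correlated with the hypoxia genes between r = -0.37 (EGLN3) and r = 0.65 (HIF1A), a description with no test.

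Straight and curly libraries were then compared within each class. In endothelial-like cells, none of the 5 members with at least 100 UMIs (KDR, FLT1, TIE1, TEK and CD34) differed 2-fold or more between the libraries, where 6.69% of 2450 genes with as many UMIs did. CD34 was lower in curly cells by the widest margin of its counting interval, with 238 against 345 CPM and a log2 ratio of curly over straight of -0.54 (interval -0.78 to -0.30). FLT1 followed, with 39.3 against 65.9 CPM and a log2 ratio of -0.74 (-1.36 to -0.16). KDR (-0.26, -0.61 to 0.08), TIE1 (-0.27, -0.70 to 0.15) and TEK (0.19, -0.37 to 0.75) had intervals that include 0.

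The scaling of these ratios is close to even, since the median log2 ratio over the 2450 genes was -0.00. In the same cells, straight and curly ACKR1 levels were 113 and 370 CPM and those of the epidermal keratin KRT1 288 and 850 CPM. The general endothelial markers went different ways, CLDN5 from 580 to 1149 CPM, CDH5 from 204.5 CPM (180.7 to 230.5) to 144.5 CPM (120.3 to 172), VWF from 319 to 276 CPM and PECAM1 from 1373 to 1377 CPM. The part of vessel type and of RNA of other cells in the CD34 and FLT1 ratios was not tested. Without the cells with CCL21 the log2 ratio of CD34 was -0.50 (-0.74 to -0.25), and without those with ACKR1 it was -0.48 (-0.74 to -0.22), although cells of these vessel types in which the marker was not captured remain among the rest. Of the related sialomucins, EMCN had straight and curly levels of 465 and 297 CPM and PODXL of 161 and 103 CPM, whereas CD164 (117 and 120.3 CPM) was nearly even. The selectin SELE was higher in curly (7.66 and 16.2 CPM, 24 UMIs over both libraries). The selectin SELP was lower in curly (22.2 and 12.7 CPM, 40 UMIs over both libraries). The median log2 ratio of the 5 genes of that list with at least 20 UMIs was -0.64.

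Members with fewer UMIs were less certain. VEGFC (-0.20, -1.10 to 0.65) and ANGPT2 (0.01, -0.80 to 0.79) had ratios whose intervals span 0 widely. VEGFA was higher in curly endothelial-like cells, at 28.9 CPM (25 UMIs) against 13.02 CPM (17 UMIs), with a log2 ratio of 1.15 (0.20 to 2.13), the only one of the 8 past 2-fold there, where 11.1% of the 7142 genes with at least 20 UMIs were. When endothelial cells were taken instead as all cells with UMIs of 3 endothelial markers, the ratio was 0.41 (-0.39 to 1.19), since 14 straight and 4 curly cells outside the cluster entered with 15 and 3 VEGFA UMIs. Without the cells with ACKR1 it was 0.96 (-0.08 to 2.01).

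**Figure D5:**
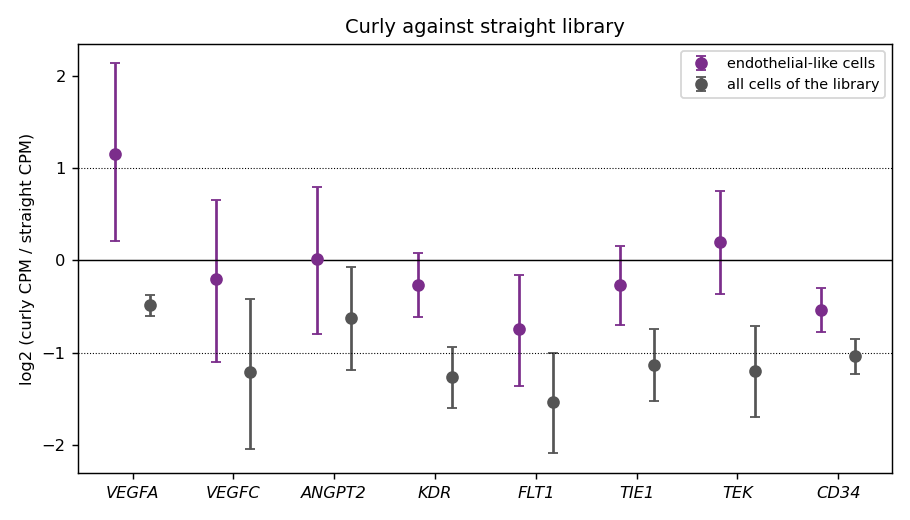
Log2 ratio of curly over straight CPM of each gene in endothelial-like cells and in all cells of the libraries, with exact binomial intervals; dotted lines mark a 2-fold difference. Over all cells every gene lies below 0 (KDR at -1.26), whereas in endothelial-like cells the ratios of 5 of the 8 span 0.

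Over all cells of a library, 5 of the 7 members with at least 100 UMIs were 2-fold or more lower in curly: FLT1 (-1.54), KDR (-1.26), TEK (-1.20), TIE1 (-1.13) and CD34 (-1.04), where 6.91% of 13196 genes were 2-fold or more lower and 10.2% differed as much in either direction. Averaged over cells, KDR (-0.79), TEK (-0.93) and CD34 (-0.74) were no longer past 2-fold, and with median of ratios scaling TIE1 (-0.95) and CD34 (-0.85) were not, so that FLT1 alone of the 5 stayed past 2-fold under both. ANGPT2 (-0.63, -1.19 to -0.07) and VEGFA (-0.49, -0.60 to -0.37) were lower by less, and VEGFC stood at -1.21 on 60 UMIs. The median over all these genes was -0.18. Endothelial-like cells made up 2.98% of cells and 2.25% of UMIs in straight but 2.202% of cells and 1.11% of UMIs in curly, and the part of this share in the ratios over all cells was not tested. Outside the endothelial-like cells, the log2 ratio of VEGFA was -0.51 (-0.63 to -0.40) and that of TEK -2.76 (-4.32 to -1.47, from 30 and 6 UMIs, of which the straight mast-like cells held 21). The other 6 had intervals that include 0 there, among them CD34 with 2.45 and 2.33 CPM. Fewer vessel cells in the skin, fewer of them in the mixed suspension and less RNA per vessel cell cannot be told apart over a whole library.

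In other classes, VEGFA differed in both directions. In suprabasal cells of the interfollicular epidermis (suprabasal IFE-like), the level was 39.7 CPM (198 UMIs, 34.3 to 45.6) for straight and 16.2 CPM (96 UMIs, 13.1 to 19.8) for curly cells, a log2 ratio of -1.29 (-1.66 to -0.93), where 4.54% of 6517 genes were 2-fold or more lower and 9.45% past 2-fold in either direction. At the finer resolution the suprabasal cluster of 109 straight and 126 curly cells held 102 CPM (112 UMIs) and 23.7 CPM (40 UMIs), a log2 ratio of -2.11, and the remaining suprabasal IFE-like cells 22.1 and 13.2 CPM, a log2 ratio of -0.74 (-1.25 to -0.24). The ratio was thus farther from 0 in the cells named suprabasal at both resolutions. Cluster 3, led by KRT79 and CST6, had suprabasal IFE as its best class but a score of 1.48, just under the limit of 1.5 for a name, and there VEGFA was higher in curly, at 22.97 CPM (182 UMIs) against 16.15 CPM (111 UMIs) in straight, a log2 ratio of 0.51 (0.16 to 0.86). The direction in suprabasal cells thus differs between the clusters that carry such markers. In the small unnamed cluster 22 of 18 straight and 64 curly cells, 11 and 4 UMIs gave -4.06 (-6.16 to -2.30). Matrix-like cells gave -0.35 (-0.66 to -0.03). VEGFA in DPC-like cells (-0.57, -1.25 to 0.06), where 12.5% of 4786 genes were past 2-fold, and in mast-like cells (-0.74, -1.65 to 0.05), where 9.02% of 1397 genes were, stayed within 2-fold.

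CD34 in fibroblast-like cells was higher in curly, at 49.2 against 27.0 CPM, a log2 ratio of 0.86 (0.43 to 1.30), within 2-fold, which 5.19% of 4601 genes were past. Without integration of the libraries the class shrank to 41 straight and 64 curly cells with 262 and 231 CPM, a log2 ratio of -0.18, so the direction depends on which cells are called fibroblast-like. In smooth muscle and pericyte-like cells no member reached 100 UMIs, against 10.3% of 1294 genes past 2-fold, and ANGPT2 gave -0.85 (-1.82 to 0.12).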

How the data were processed

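Single-cell libraries of 1 straight wool and 1 curly wool skin pool were compared. The authors aligned the reads with Cell Ranger (version 3.0.2 in the submitters' processing notes) to Oar_rambouillet_v1.0 and deposited a table of natural log values, in which each cell's UMIs had been brought to a total of 10000 and 1 added before the log was taken. The plan had assumed counts, so UMIs were calculated back, and 100% of 28552149 values were whole within 0.01. The libraries hold 57956122 (straight) and 77634565 (curly) UMIs. For a sum of 0 the limit given is that of 3 counts or 3 cells, unless an exact interval is named. This limit lies below the upper end of the exact interval (0.452 against 0.556 CPM for CD34 in curly hair shaft-like cells). No genome of the authors' build was used, so no position or sequence is given.

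Without the 8 genes, the libraries were joined with Seurat 5.3.0 (R 4.3.3, anchor integration, 2000 variable genes, 30 dimensions) and clusters taken at resolution 0.4. Each cluster was scored by how far a class's markers exceeded the other clusters on average (log2 ratio, 5 CPM added) and took the best class, if it was at least 1.5, at least 0.6 of the best score of that class, with at least 3 markers in at least 10% of cells and no class with more markers among the 10 leading genes (immune markers did not count against mast cells, and clusters where cycling genes led were called cycling). These limits were set after the data were seen. Doublets were not removed in the values reported; as an alternative the 6% of cells per library with the highest Scrublet score (scanpy 1.11.5) were removed.

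UMIs were summed per class and library, with exact Poisson intervals for CPM, exact Clopper-Pearson intervals for shares and the exact binomial split for log2 ratios, all at 95%. The 2-fold share of all genes was taken over genes with at least 100 UMIs in the class. The script was tested on simulated data. Like genes are the 5 with the highest Pearson correlation among genes with at least 200 UMIs. Genes named are the 8 members, the genes of fixed lists of vessel, pathway and marker genes, like genes, and the leading genes of clusters, of which those outside the lists were chosen after their values were seen. The genes that split endothelial-like cells were picked after their values were seen. Members and lists were chosen with earlier results of these data known. Alternatives were resolution 0.8, no integration, cells with at least 1000 genes, doublets removed, 3 endothelial markers, mean of per-cell CPM, median of ratios scaling, other minimum UMIs (20 and 400), thinning to 2000 UMIs and Spearman correlation. Sums and intervals were computed with scipy 1.17.1, numpy 2.4.6 and pandas 2.3.3 in Python 3.11.15, and plots drawn with matplotlib 3.10.9.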

Additional observations from a re-analysis of the deposited data

Results flagged for a closer look

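Where the counting interval of a log2 ratio of curly over straight lay above 0 in one named cluster and below 0 in another, a member was listed here, and these differences between clusters were not tested. VEGFA was lower in curly in matrix-like cells (-0.35) and in suprabasal IFE-like cells (-1.29) and higher in endothelial-like cells (1.15, from 17 and 25 UMIs). CD34 was lower in curly in endothelial-like cells (-0.54) and higher in fibroblast-like cells (0.86), in DPC-like cells (2.14, from 6 UMIs in each library) and in the HFSC-like cluster 11 (2.69, from 2 and 9 UMIs).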

How the results depend on the processing

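No paired analysis was possible because each wool type has 1 library. Averaging CPM over cells, the log2 ratio of curly over straight in endothelial-like cells was -0.73 for TIE1 and -0.82 for CD34, and over all cells -0.79 for KDR and -0.74 for CD34, both then within 2-fold. With median of ratios scaling VEGFA over all cells gave -0.30. At resolution 0.8 the log2 ratio was -2.11 for VEGFA in suprabasal IFE-like and 1.53 for CD34 in fibroblast-like cells, and without integration the latter turned to -0.18, on 105 cells. With a minimum of 20 UMIs, which admits genes of fewer counts, the share of genes past 2-fold was 11.1% in endothelial-like, 20.8% in mast-like, 16.4% in smooth muscle and pericyte-like, 10.3% in fibroblast-like and 19.1% in DPC-like cells. Of the values tried, levels of single genes included, those beyond their counting interval numbered 5 against 100 within it on doublet removal (TIE1 in straight immune-like cells rose to 217 CPM on 10 cells), 2 against 103 in cells with at least 1000 genes, 2 against 29 with 3 endothelial markers, 18 against 79 averaged over cells, 13 against 84 at resolution 0.8 and 15, beside the reversed one, against 81 without integration. Thinning, which lowers shares by construction, moved 14 and left 2, and Spearman correlation moved all 8 sets of like genes. Other causes were not tested. Leaving out shared barcodes, or the cell with most UMIs of a gene, was added after seeing the data, with 105 values within the interval for the former and 36 within and 14 beyond it for the latter. Classes under 200 cells, the mixing of suspensions and the 1 library per wool type limit what can be told.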
